A study of Mus musculus with 2 samples.

Results

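MHC class II and its invariant chain are described here through 7 genes of the 31053 in the deposited tables, taken by symbol: Cd74, H2-Aa, H2-Ab1, H2-Eb1, H2-DMa, H2-DMb1 and Ciita. All 7 were found. They were measured by droplet 3' single-cell RNA sequencing in mouse bone marrow cells sorted as Lin- Kit+, that is, without mature lineage markers and with the Kit receptor. The study set 1 wild-type library (WT) against 1 library from mice whose GATA-1 gene carried a knock-in mutation, named 2RA in the series title, to compare cell populations and gene regulation. GATA-1 directs transcription in erythroid cells, megakaryocytes, mast cells and eosinophils. Strain, age, sex and the number of mice behind each library were not given in the labels, and neither was the design of the knock-in allele.

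MHC class II molecules are pairs of an alpha and a beta chain that show peptides from engulfed material to CD4+ T cells. In the mouse, H2-Aa and H2-Ab1 encode the I-A pair and H2-Eb1 encodes the beta chain of I-E, while Cd74 (the invariant chain) holds the empty pair together and blocks its groove. H2-DM, made of H2-DMa and a beta chain, swaps the Cd74 remnant for a peptide, and Ciita is the coactivator that drives the whole set. High levels are textbook features of dendritic cells, B cells and activated macrophages, cells that a Lin- Kit+ sort is meant to leave out.

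In wild type 7471 barcodes were deposited and in the knock-in 6640. After filtering, 5489 and 5500 cells remained, with 64350027 and 43629184 UMIs (tags that each mark 1 captured RNA molecule) and medians of 9635 and 5272.5 UMIs per cell. Only 5 barcodes occurred among the kept cells of both libraries. Cells were grouped by 19 clusters made without the 7 genes and their lists, and 7 classes had 100 cells in each library. Each class name means only that the cells resembled that class by its markers. Each genotype had 1 library, so no test across samples could be made, every difference is between these 2 libraries, and the 95% intervals cover counting error only.

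In mm10, 5 of the 7 genes lie in the class II region of chromosome 17. H2-DMa (ENSMUSG00000037649) spans 34119541 to 34139101 on the plus strand and overlaps Brd2 on the minus strand. H2-DMb1 (ENSMUSG00000079547, 34153072 to 34160230, plus), H2-Ab1 (ENSMUSG00000073421, 34257689 to 34269419, plus) and H2-Aa (ENSMUSG00000036594, 34282744 to 34287823, minus) follow. H2-Eb1 (ENSMUSG00000060586, 34305867 to 34316674, plus) overlaps the antisense gene Gm20513. Ciita (ENSMUSG00000022504) spans 10480059 to 10528418 on chromosome 16, plus strand, and overlaps Dexi.

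Class II promoters carry a conserved X box, bound by the RFX complex, and a Y box, bound by NF-Y. Promoter sequences from RefSeq (GRCm38.p6) are shown for 3 genes whose levels went apart in these cells: H2-Aa and H2-Eb1, held mostly by rare cells, and H2-DMa, found in most classes. Each runs 5′ to 3′ on the gene's strand from 140 to 11 bases before the start site, and capitals mark matches to ATTGG (a Y box core) or to an X box form (AG, any pair of bases, AC, any base, then GATG), searched on both strands.
H2-Aa, chr17:34287834-34287963, minus strand: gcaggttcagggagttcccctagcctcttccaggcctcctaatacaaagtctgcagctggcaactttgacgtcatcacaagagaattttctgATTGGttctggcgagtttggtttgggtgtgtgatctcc
H2-Eb1, chr17:34305727-34305856, plus strand: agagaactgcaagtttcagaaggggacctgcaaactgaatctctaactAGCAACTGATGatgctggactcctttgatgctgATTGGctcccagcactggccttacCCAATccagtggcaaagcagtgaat
H2-DMa, chr17:34122692-34122821, plus strand: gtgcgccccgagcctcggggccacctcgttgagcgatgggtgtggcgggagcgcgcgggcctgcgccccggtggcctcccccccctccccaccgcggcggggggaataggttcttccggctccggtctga

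ATTGG began 48 bases before the H2-Aa start and 59 bases before the H2-Eb1 start, where its reverse complement CCAAT also occurred at 35 bases. AGCAACTGATG began 92 bases before the H2-Eb1 start. In H2-DMb1, which like H2-DMa was found in most classes, AGTAACTGATG began at 95 and ATTGG at 61 bases. Any tie between these letters and the levels was not tested. The H2-DMa window shown lies within the annotated span of the gene. It held neither, and in its 250 upstream bases it had 27 CG dinucleotides against a median of 6. A second annotated H2-DMa start had ATTGG 198 bases upstream and 0 CG dinucleotides in its 250 upstream bases. Which of the 2 starts these cells used was not tested. Of 32851 promoter windows of 250 bases, 33.8% held ATTGG, 0.816% held the X box form and 0.292% held both. A match describes the letters and shows no binding.

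Most RNA of Cd74, H2-Aa and H2-Eb1, though not of the other 4 genes, lay in very few cells. These were of different kinds in the 2 libraries. A class II high cell was defined as one with at least 10 UMIs of Cd74, H2-Aa, H2-Ab1 and H2-Eb1 summed and at least 0.2% of its UMIs from them. By this rule 13 of 5489 wild-type cells were high, or 0.237% (exact Clopper-Pearson interval 0.126 to 0.405%). In the knock-in library 35 of 5500 cells were high, or 0.636% (0.444 to 0.884%). Of the wild-type high cells 9 were dendritic-like, 3 stem-like and 1 B-like. Of the knock-in high cells 32 were B-like. The other 3 lay singly in the dendritic-like cluster, the stem-like cluster and an erythroid cluster.

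**Figure D1:**
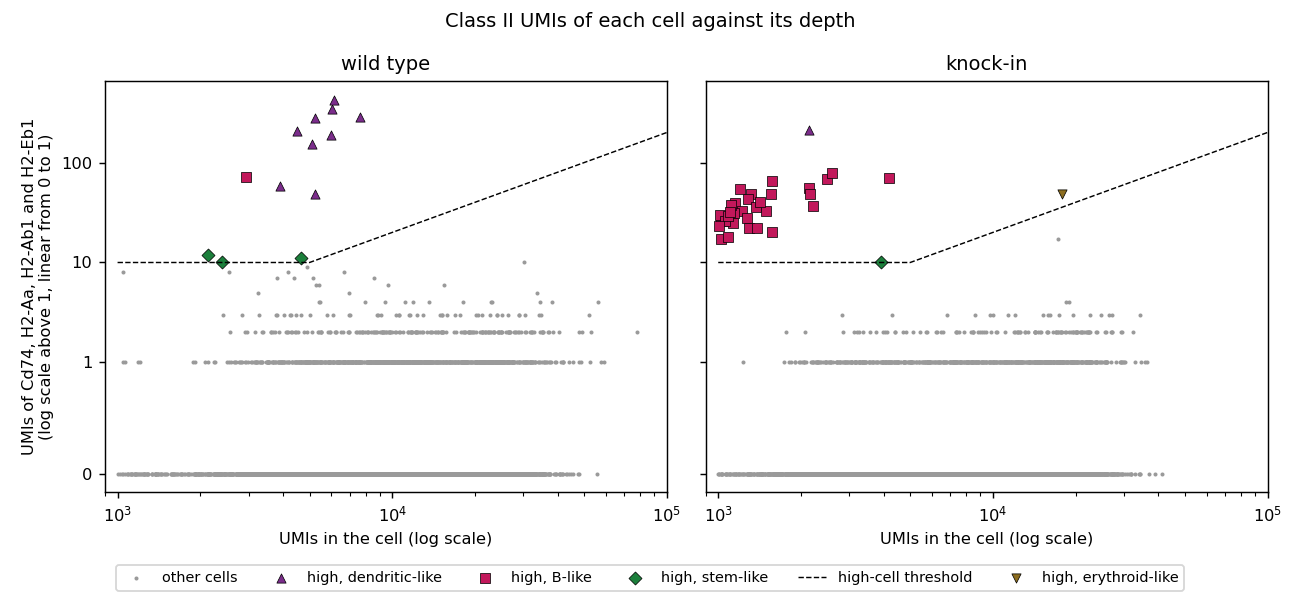
Class II UMIs of each cell (Cd74, H2-Aa, H2-Ab1 and H2-Eb1 summed, vertical) against the cell's total UMIs (horizontal, log scale), 1 point per cell, wild type left and knock-in right. The 9 wild-type dendritic-like cells held 48 to 425 class II UMIs at 3901 to 7634 total UMIs, and the 32 knock-in B-like cells held 17 to 79 at 1007 to 4182.

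The rest of the cells formed a tail with no second peak. In wild type 4370 cells had no UMI of the 4 genes, 850 had 1 and 29 had 4 to 9. In the knock-in 4711 had none, 626 had 1 and 2 had 4 to 9. Just outside the threshold in wild type lay an erythroid-like cell with 10 UMIs (0.0332% of its UMIs), then a lymphoid-primed cell with 9 and 3 stem-like cells with 8. Just inside lay the 3 stem-like cells, with 10, 11 and 12. In the knock-in the nearest cell outside was erythroid-like, with 17 UMIs (0.0988% of its UMIs), and the next had 4. The stem-like high cell there had 10.

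The share of each gene's molecules held by the high cells split the 7 genes into groups. For Cd74 the high cells held 1185 of 1338 wild-type UMIs (88.6%) and 946 of 991 knock-in UMIs (95.5%). They held 79.4% and 89.6% of H2-Aa and 81.9% and 93.4% of H2-Eb1. For H2-Ab1, the beta chain that pairs with H2-Aa, the shares were only 19.3% and 14.1%. For H2-DMa they were 0.871% and 1.05%, and for H2-DMb1 2.95% and 0.451%. Nearly all RNA of H2-DMa and H2-DMb1 thus lay outside the high cells. Per 1000000 UMIs, H2-DMa still stood at 724 in the wild-type dendritic-like and 545 in the knock-in B-like high cells. Outside the high cells it stood at 70.8 and 75.7. H2-DMb2, the other DM beta chain gene, gave 29 UMIs in the 32 knock-in B-like cells and 28 outside the knock-in high cells. In wild type it gave 3 in the 9 dendritic-like cells and 90 outside the high cells. Ciita was sparse, with 16 of 36 wild-type and 10 of 20 knock-in UMIs in high cells. The Cd74, H2-Aa, H2-Ab1 and H2-Eb1 shares describe the cells that these genes chose.

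The wild-type dendritic-like cells carried genes of conventional dendritic cells. Such markers named the clusters, so their presence is a description. Each cell had 51 to 246 UMIs of the 12 conventional dendritic markers and none of the 11 B lineage markers. Most of these UMIs came from Cst3 (1239 in 9 of 9 cells), which encodes cystatin C and was also at 451 CPM (a gene's UMIs scaled to a total of 1000000) in wild-type stem-like cells. Naaa gave 60 UMIs in 9 of 9 cells. Irf8, a factor needed for type 1 conventional dendritic cells, gave 100 UMIs in 9 of 9. Irf8 is also on the list of 11 monocyte progenitor markers, which summed to 173 UMIs, with at least 3 markers in 8 of 9 cells. The 12 neutrophil progenitor markers gave 78 UMIs, 47 of them in 1 cell, with at least 3 markers in 4 of 9. The type 1 markers Xcr1 (10 UMIs) and Clec9a (5 UMIs) were each seen in 4 of 9 cells and Batf3 in 4. Cd209a, a marker of other dendritic cells, gave 0 UMIs. Kit itself gave 6 UMIs in 5 of these 9 cells. Class II took 0.919 to 6.92% of a cell's UMIs.

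The knock-in B-like cells carried the RNA of B cells that already made immunoglobulin. Cd79a, a signalling chain of the B cell receptor, gave 144 UMIs in 32 of 32 cells, and each cell had a UMI of Igkc, Ighm or Ighd. Igkc (kappa light chain) gave 296 UMIs in 27 cells, Ighm 93 in 28, and Ighd, a marker of mature naive cells, 33 in 19. Of the wild-type dendritic-like cells 6 of 9 also had an Ighm UMI (9 in all), with 0 of Igkc and Ighd. Ms4a1, which encodes CD20, gave 52 UMIs in 22 cells. Vpreb1 and Rag1, which mark B cell precursors, gave 0. So did Cd3e of T cells and C1qa of macrophages. The 10 plasmacytoid dendritic markers gave 106 UMIs, 91 of them Ly6d, which B lineage cells also express, and 0 Siglech. None of the 32 cells had a Kit UMI. Class II took 1.27 to 4.49% of their UMIs.

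**Figure D2:**
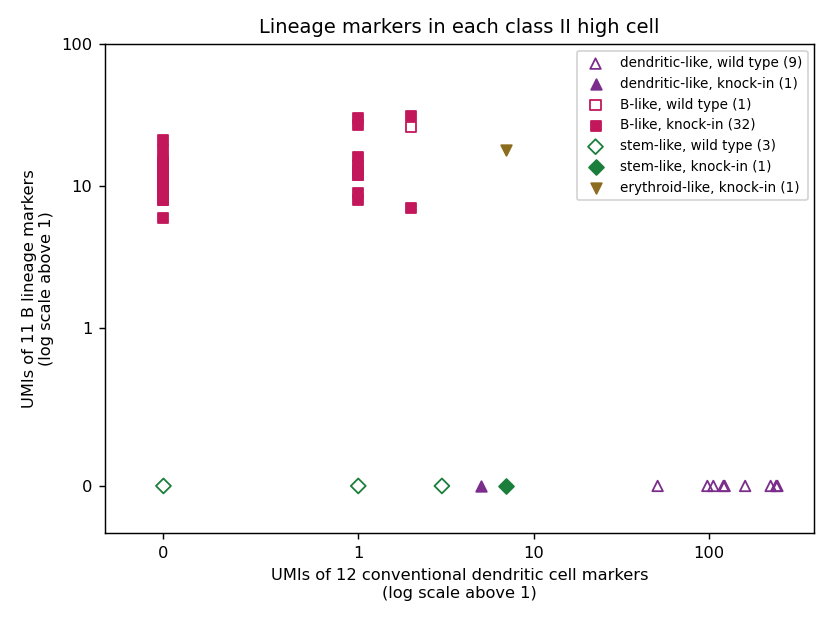
UMIs of 12 conventional dendritic markers (horizontal) against UMIs of 11 B lineage markers (vertical) in each high cell, both axes logarithmic above 1, open symbols wild type and filled symbols knock-in, with overlapping points drawn over each other. The 9 wild-type dendritic-like cells lie at 51 to 246 dendritic marker UMIs with no B marker, and the 32 knock-in B-like cells at 6 to 31 B marker UMIs with 0 to 2 dendritic marker UMIs.

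The remaining high cells were few. The wild-type B-like cell had 72 class II, 58 Igkc and 11 Cd79a UMIs. The knock-in cell in the dendritic-like cluster had 213 class II UMIs, 9.93% of its total, but of the dendritic markers only Cst3 (5 UMIs), so its type was not settled by markers. The knock-in high cell in an erythroid cluster had 17825 UMIs, 262 of them erythroid markers and 18 B markers, with 6 Cd79a UMIs. It was not called a doublet. The 3 wild-type stem-like high cells had 10 to 12 class II UMIs, 5 to 12 stem marker UMIs and no B marker. The knock-in stem-like high cell had 10 UMIs of Cd74 and 0 of H2-Aa, H2-Ab1 and H2-Eb1.

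The knock-in B-like cells were small libraries, close to the limit of 1000 UMIs for a kept cell, with a median of 1279. The filters left out 25 further knock-in barcodes that met the high-cell rule, 19 of them below the UMI or gene minimum, and 18 of the 25 had at least 3 B markers. Only 1 wild-type barcode met the rule among those left out. The knock-in share was 0.148% when cells needed 2000 UMIs, 1000 genes and at most 5% mitochondrial UMIs. That is below the wild-type share of 0.237% in the main setting. The knock-in share was 0.948% with minima of 500 UMIs and 200 genes and at most 20% mitochondrial UMIs. The sort and these limits can set such shares, and their part in the difference was not tested.

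Within the high cells, the 2 kinds differed in which DM beta chain gene they used. The 9 wild-type dendritic-like cells had 31 H2-DMb1 UMIs in 9 of 9 cells and 3 H2-DMb2 UMIs in 2. The 32 knock-in B-like cells had 2 H2-DMb1 UMIs in 2 cells and 29 H2-DMb2 UMIs in 21. H2-DMb2 encodes the other DM beta chain, next to H2-DMb1 and close to it in sequence, so the split of reads between them is uncertain. Per 100 Cd74 UMIs, H2-DMb1 stood at 2.76 (1.87 to 3.91) in the dendritic-like and 0.254 (0.0308 to 0.918) in the B-like cells. H2-DMb2 stood at 0.267 (0.0550 to 0.779) and 3.68 (2.47 to 5.29). The alpha chain gene H2-DMa was at 3.20 (2.24 to 4.43) and 3.30 (2.16 to 4.84) per 100 Cd74 UMIs, with overlapping intervals. The single wild-type B-like cell had 0 UMIs of H2-DMb1 and 2 of H2-DMb2.

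H2-Oa and H2-Ob, the chains of the DM inhibitor H2-DO, were at 0.267 and 0.178 per 100 Cd74 UMIs in the dendritic-like cells. In the B-like cells both were at 1.65 (0.880 to 2.82). Ciita stood at 1.33 (0.746 to 2.20) and 1.27 (0.609 to 2.34). Of the surface chains, H2-Aa was at 28.7 and 23.9, H2-Ab1 at 25.0 (22.1 to 28.1) and 14.1 (11.6 to 17.0), and H2-Eb1 at 23.1 (20.4 to 26.1) and 16.4 (13.7 to 19.5) per 100 Cd74 UMIs. The cell kind and the library changed together here, so their parts cannot be told apart.

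**Figure D3:**
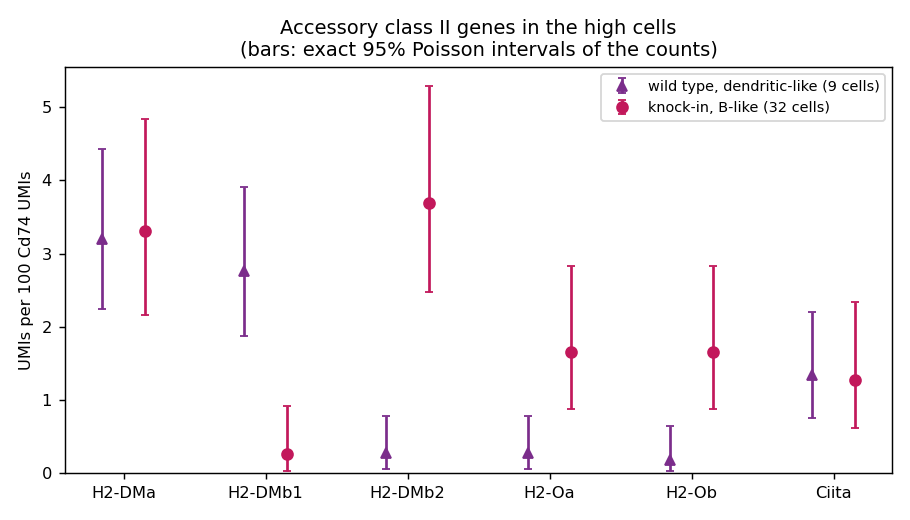
UMIs per 100 Cd74 UMIs (vertical) of the DM genes, the DO genes and Ciita in the 9 wild-type dendritic-like (triangles) and 32 knock-in B-like cells (circles), with exact Poisson intervals. H2-DMb1 is at 2.76 and 0.254 while H2-DMb2 is at 0.267 and 3.68, and H2-DMa is at 3.20 and 3.30.

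Outside the high cells, Cd74 (ENSMUSG00000024610, chromosome 18, 60803848 to 60812652, plus strand) was highest in stem and multipotent and lymphoid-primed cells in both libraries. In both classes the knock-in value was the lower. In stem and multipotent cells without the high cells, it stood at 18.4 CPM in wild type (66 UMIs, 14.3 to 23.5) and 2.60 CPM in the knock-in (8 UMIs, 1.12 to 5.13). The log2 ratio of knock-in over wild type was -2.82 (-4.09 to -1.76), and -1.97 with the high cells kept in. In lymphoid-primed cells it stood at 21.3 and 7.93 CPM from 28 and 8 UMIs, below the 50 UMIs over both libraries set for a call. The log2 ratio there was -1.43 (-2.77 to -0.26). In the other 5 classes it was at most 1.94 and 1.12 CPM, in basophil and mast cells from 2 and 1 UMIs. In erythroid cells the knock-in value was the higher, at 0.557 and 0.922 CPM from 19 and 21 UMIs. The log2 ratio there was 0.73 (-0.24 to 1.70), also below the UMIs set for a call. In the rest of these classes the knock-in value was the lower, from 19 UMIs or fewer in either library. In wild type the stem-like and lymphoid-primed intervals overlapped each other and lay above those of the other 5 classes. In the knock-in the order of classes was less certain. The stem-like interval there overlapped those of all the other 5 classes. The knock-in lymphoid-primed interval (3.42 to 15.6 CPM) overlapped those of neutrophil progenitors and of basophil and mast cells.

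H2-Aa and H2-Eb1 were also highest in these 2 classes in wild type. H2-Aa in stem and multipotent cells stood at 10.9 CPM in wild type (39 UMIs) and 2.28 CPM in the knock-in (7 UMIs), a log2 ratio of -2.26 (-3.66 to -1.08). H2-Eb1 there stood at 6.14 and 1.63 CPM from 22 and 5 UMIs, a log2 ratio of -1.92 (-3.67 to -0.48). In lymphoid-primed cells H2-Eb1 gave 11 UMIs in wild type and 0 in the knock-in, where a count of 0 allows up to 3.65 CPM. These H2-Aa and H2-Eb1 counts were below the 50 UMIs set for a call. Stem and multipotent and lymphoid-primed cells together were 15.7% of the wild-type cells outside the high cells, but held 61.4% of their Cd74, 52.8% of their H2-Aa and 54.1% of their H2-Eb1 UMIs. In the knock-in 18.2% of cells held 35.6%, 40.7% and 41.7%.

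Single cells showed the same. At least 1 UMI of Cd74, H2-Aa or H2-Eb1 was seen in 67 of 637 wild-type stem-like cells (10.5%) and in 18 of 765 knock-in ones (2.35%), at median depths of 5033 and 3752 UMIs. In erythroid-like cells, which are not known for class II, the shares were 1.57% and 1.04% at depths of 15854 and 15090.5. In wild type 17 stem-like cells had UMIs of at least 2 of these 3 genes, and in the knock-in 0 did. With every cell thinned to 2000 UMIs, Cd74 was seen in 3.23% of wild-type and 0.556% of knock-in stem-like cells, against 0.178% and 0.163% of erythroid-like cells. Thinning left out 6 and 41 stem-like cells.

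**Figure D4:**
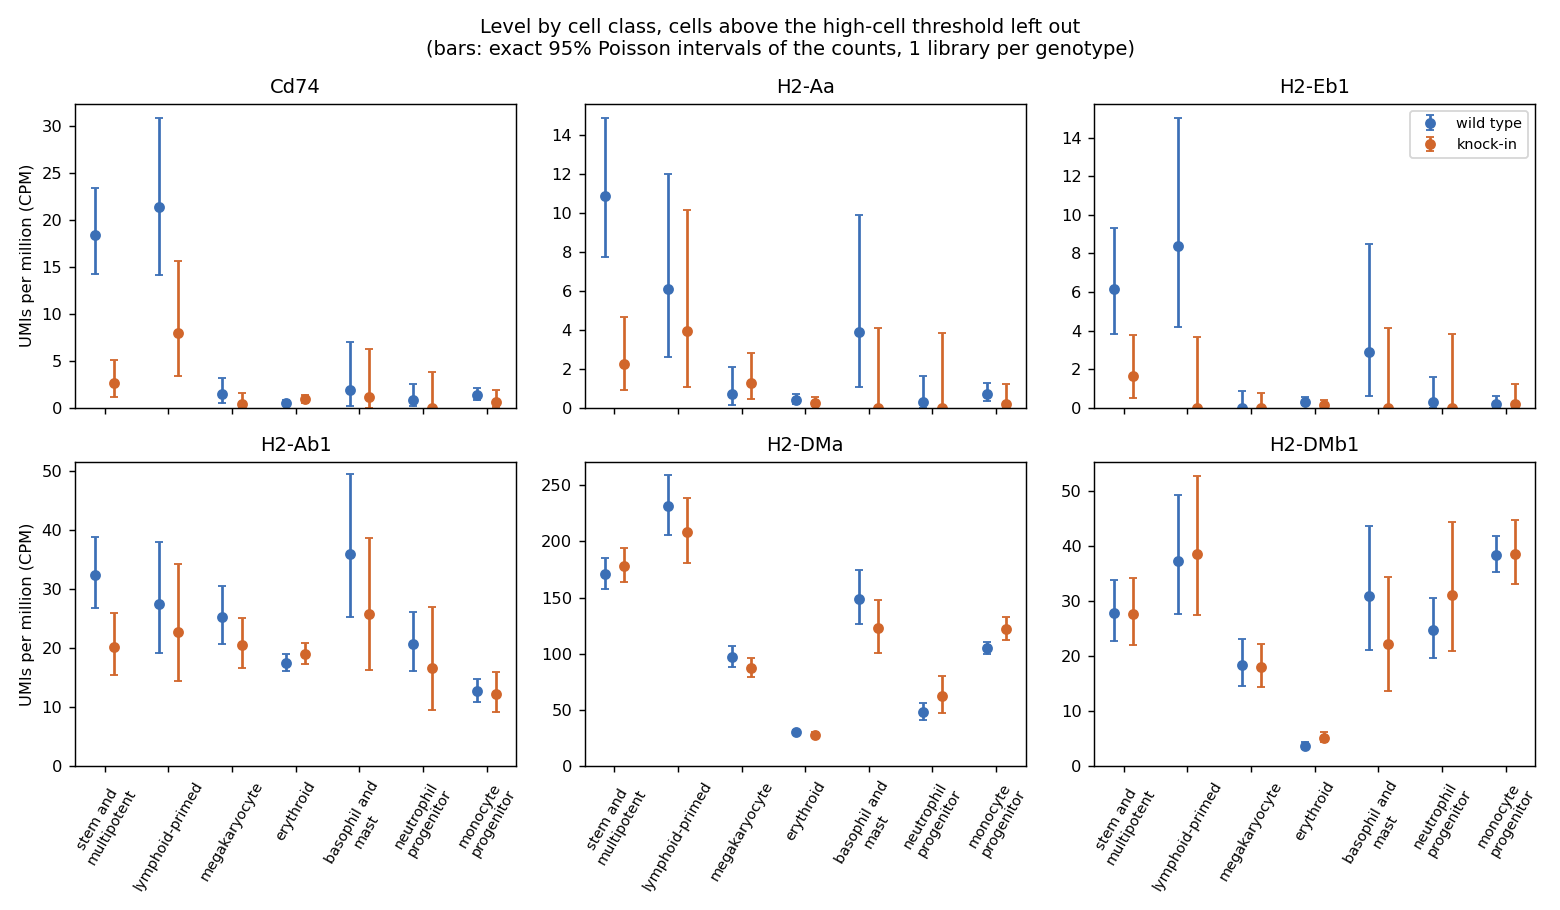
Level in CPM (vertical) of 6 genes in each of the 7 classes (horizontal) outside the high cells, wild type in blue and knock-in in orange, with exact Poisson intervals. Cd74 in stem and multipotent cells is at 18.4 and 2.60 CPM, H2-Ab1 lies between 12.2 and 35.8 CPM in every class, and H2-DMa runs from 231 CPM in wild-type lymphoid-primed to 28.0 CPM in knock-in erythroid cells.

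H2-Ab1 did not follow its partner genes outside the high cells. It was found in all 7 classes, at 12.8 to 35.8 CPM in wild type and 12.2 to 25.7 CPM in the knock-in. Over all cells it stood at 18.9 and 19.2 CPM (1214 and 835 UMIs), a log2 ratio of 0.02 (-0.11 to 0.15). Erythroid-like cells had 17.5 and 19.0 CPM. Stem and multipotent cells had 32.4 and 20.2 CPM, a log2 ratio of -0.68 (-1.15 to -0.23). The wild-type order ran from basophil and mast cells (35.8) through stem and multipotent, lymphoid-primed, megakaryocyte, neutrophil and erythroid cells to monocyte progenitors (12.8). Each neighbour's interval overlapped the next except at the last step, where the erythroid interval began at 16.1 and that of monocyte progenitors ended at 14.8.

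Of the H2-Ab1-positive cells outside the high cells, 94.6% in wild type and 98.9% in the knock-in had no UMI of Cd74, H2-Aa or H2-Eb1. Cd74 UMIs per 100 H2-Ab1 UMIs stood at 407 and 691 in the high cells. They stood at 56.9 and 12.9 in stem and multipotent, 77.8 and 34.8 in lymphoid-primed and 3.18 and 4.85 in erythroid cells. Igkc stood at 0.467 and 0.367 CPM in the cells outside them. Background RNA was not removed, and its part in these low levels was not tested.

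H2-DMa and H2-DMb1 were present across the progenitors and differed by less than 2-fold between the libraries in every class. H2-DMa was highest in lymphoid-primed cells (231 and 208 CPM), then stem and multipotent (171 and 178), basophil and mast (149 and 123), monocyte progenitor (106 and 123), megakaryocyte (97.3 and 87.6) and neutrophil progenitor cells (48.7 and 62.3). It was lowest in erythroid cells (30.3 and 28.0). In wild type the intervals of lymphoid-primed and stem and multipotent cells did not overlap, while those of stem and multipotent with basophil and mast, and of monocyte progenitor with megakaryocyte cells, did. Over all cells it stood at 70.8 and 75.7 CPM, a log2 ratio of 0.10 (0.03 to 0.16). The erythroid ratio of -0.11 turned to 0.21 at a finer clustering and to 0.53 with the unnamed cluster 10 counted as erythroid, so it has no stable direction.

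H2-DMb1 had a different order. It was near 38 CPM in both monocyte progenitors (38.5 and 38.6) and lymphoid-primed cells (37.4 and 38.6), lower in stem and multipotent cells (27.9 and 27.7), and lowest in erythroid cells (3.81 and 5.27). The erythroid log2 ratio was 0.47 (0.10 to 0.84), but 0.03 at a coarser clustering. Most wild-type erythroid cells lay in clusters 0 and 7 and most knock-in ones in clusters 13 and 15. Ciita, the shared coactivator, gave 20 wild-type and 10 knock-in UMIs outside the high cells. Of these 8 and 4 were in stem and multipotent cells, 6 and 3 in megakaryocyte cells, and 0 in monocyte, neutrophil and basophil and mast cells of either library.

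Summed over Cd74, H2-Aa, H2-Ab1 and H2-Eb1, class II in stem and multipotent cells stood at 67.9 CPM in wild type (59.6 to 77.0) and 26.7 CPM in the knock-in (21.2 to 33.1). The log2 ratio was -1.35 (-1.73 to -0.98). In lymphoid-primed cells it stood at 63.3 and 34.7 CPM, a log2 ratio of -0.87 (-1.48 to -0.28). Erythroid cells had 18.8 and 20.3 CPM (0.11, -0.06 to 0.29). The intervals of the other 4 classes also included 0. All cells together had 23.6 and 21.1 CPM (-0.16, -0.28 to -0.04). Most of that was H2-Ab1, with 1214 of 1517 wild-type and 835 of 919 knock-in UMIs.

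**Figure D5:**
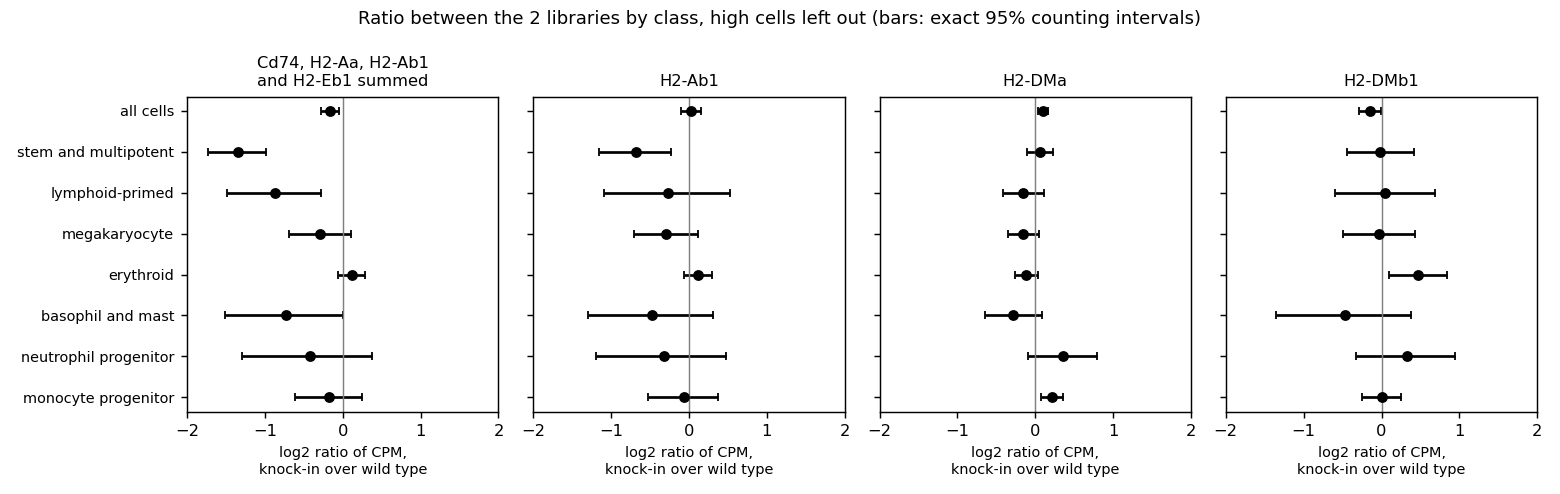
Log2 ratio of CPM, knock-in over wild type (horizontal), for the summed class II genes, H2-Ab1, H2-DMa and H2-DMb1 in all cells and in each class (vertical), high cells left out, with exact 95% counting intervals and a line at 0. The summed genes lie at -1.35 in stem and multipotent and at -0.87 in lymphoid-primed cells, while H2-DMa lies between -0.28 and 0.36 in every class.

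Counted outside the high cells at a 2-fold limit with at least 50 UMIs over both libraries, 3 of the 6 genes measured over all cells were lower in the knock-in (Cd74, H2-Aa and H2-Eb1) and 0 were higher. With the high cells kept in, all 3 were within 2-fold. The log2 ratio of Cd74 over all cells then turned from -1.20 to 0.13 (0.01 to 0.25). That of H2-Aa went from -1.16 to -0.17 (-0.40 to 0.06) and that of H2-Eb1 from -1.78 to -0.32 (-0.59 to -0.06). Of 11994 genes so measured, 3.04% were lower and 2.18% higher by that limit. In stem and multipotent cells 1 of 4 (Cd74) was lower, and 0 were higher, where 1.19% and 0.615% of 8620 genes were. None of the 3 genes measured in each of the other 6 classes was 2-fold apart. Among all genes in those classes 1.90% were in lymphoid-primed, 2.39% in megakaryocyte, 4.75% in erythroid, 2.69% in basophil and mast, 3.50% in neutrophil and 2.60% in monocyte cells. Over all cells the median log2 ratio of the 6 genes was -0.65, against 0.07 over the 11994.

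Markers of other cells moved with class II in the stem and multipotent cells. The 10 macrophage markers summed to 65.5 CPM in wild type, with 10 of 10 seen, and 25.7 CPM in the knock-in, with 9 of 10. C1qa stood at 13.1 and 5.53 CPM and Vcam1 at 11.7 and 2.60 CPM. The 11 monocyte progenitor markers summed to 226 and 139 CPM. Of these 10 had the lower value in the knock-in, Ly6c2 at 29.0 and 4.56 CPM among them, while Fcgr3 stood at 13.1 and 31.6 CPM. The 12 neutrophil progenitor markers summed to 4146 and 2818 CPM. The 11 B markers summed to 49.3 and 52.3 CPM with 6 and 5 of them seen. Most of that was Cd79b (44.7 and 48.8 CPM), while Cd79a, Ms4a1 and Pax5 were at 0 in both libraries. The 12 dendritic markers summed to 559 and 532 CPM with 7 and 6 seen, most of it Cst3, Flt3 (69.5 and 53.4 CPM) and Wdfy4 (36.6 and 33.2 CPM). Xcr1, Clec9a and Batf3 were at 0. Of the 67 wild-type stem-like cells with Cd74, H2-Aa or H2-Eb1, 11 had a macrophage marker UMI. Without every cell that had one, 586 and 716 cells, class II stood at 67.4 and 25.7 CPM, a log2 ratio of -1.39. A cell without a macrophage marker UMI can still hold macrophage RNA. The part of macrophage, monocyte and neutrophil RNA in the class II difference was not tested.

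The stem and multipotent ratio kept its direction without the cells richest in class II. Without the 3 wild-type stem-like cells richest in class II the log2 ratio of the sum was -1.20. With all cells of 4 or more class II UMIs left out in both libraries, it was -0.92. Of the stem-like cells this left out 10 in wild type, with 65 of 243 UMIs, and 0 in the knock-in. Both cuts chose cells by the values compared, so they give no separate support for the difference. Across the settings tried the log2 ratio of the sum ran from -0.92 to -1.72.

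Genes that serve class II were described from lists. By the 2-fold limit, 3.04% of all 11994 genes measured over all cells were lower in the knock-in and 2.18% higher. Of the 4 other class II locus genes in the files, 3 were measured over all cells. H2-Oa was higher in the knock-in at 8.45 and 19.7 CPM (1.22, 1.06 to 1.38) and H2-DMb2 lower at 1.40 and 0.643 CPM (-1.12, -1.79 to -0.50). Monocyte progenitors held 58 of the 90 wild-type H2-DMb2 UMIs, and there it stood at 4.04 and 2.89 CPM, within 2-fold. H2-Ob stood at 6.97 and 11.8 CPM. H2-Ob was lower in erythroid cells, at 2.90 and 1.01 CPM, but higher among basophil and mast cells, at 21.3 and 43.6 CPM. The make-up of the latter class differed, with eosinophil markers at 2009 and 7.82 CPM and basophil and mast markers at 3542 and 1815 CPM, and its part was not tested. Stem and multipotent cells had H2-Oa at 17.0 and 21.5 CPM and H2-Ob at 24.0 and 23.4 CPM. Values over all cells mix classes whose shares differed between the libraries, with unnamed cluster 10 holding 22 wild-type and 1352 knock-in cells.

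Of 13 class II transcription factors, 11 were measured over all cells, with a median log2 ratio of 0.09. By the 2-fold limit 1 was lower and 0 were higher, against 3.04% and 2.18% of all 11994 genes. The one lower was Nlrc5, the coactivator of MHC class I, at 6.04 and 2.34 CPM (-1.37, -1.70 to -1.05). It was also lower in erythroid cells (6.21 and 1.67 CPM) and megakaryocyte cells (7.93 and 3.86 CPM). Among stem and multipotent cells Nlrc5 stood at 10.3 and 2.60 CPM from 37 and 8 UMIs, too few for a call. Irf8, which takes part in dendritic and monocyte fate, was lower in erythroid cells (5.39 and 1.98 CPM) and megakaryocyte cells (10.3 and 3.65 CPM). The RFX subunit genes did not follow Cd74. Among stem and multipotent cells Rfx5 stood at 9.78 and 13.7 CPM, Rfxap at 35.7 and 40.7 and Rfxank at 9.78 and 11.1, and Nfya at 55.0 and 53.7.

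Of 7 peptide loading proteases and chaperones measured over all cells, 2 were lower by 2-fold and 0 higher, with a median log2 ratio of -0.18. Among all 11994 genes 3.04% were lower and 2.18% higher by that limit. Ctss, the protease that trims Cd74 in dendritic and B cells, stood at 10.4 and 4.34 CPM (-1.26, -1.50 to -1.03), while stem and multipotent cells had 14.8 and 6.84 CPM. Lgmn stood at 0.902 and 0.436 CPM. The more abundant Ctsd stood at 161 and 171 CPM and Hsp90b1 at 421 and 371. Of 7 measured genes of surface turnover and costimulation, 1 was lower (Icosl, 0.653 and 0.275 CPM) and 0 higher, with a median of -0.21. Mif, a ligand of Cd74, stood at 939 and 810 CPM, and Cd44, its partner receptor, at 57.1 and 43.8.

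Over 25 groups of at least 50 cells, each a cluster in 1 library, Cd74 ran with H2-Aa (Pearson r 0.83 of log2(CPM + 1)) and H2-Eb1 (0.77), H2-Aa with H2-Eb1 (0.81), and H2-DMa with H2-DMb1 (0.87). Cd74 ran less with H2-Ab1 (0.53). Of 10323 other genes the pattern most like the class II sum was that of Ddx60 (0.89), then Mob1a (0.88), Trim34a (0.88), Rlim (0.88), Tob2 (0.87), Rps6ka3 (0.87), Ctso (0.87), Epc1 (0.87), Oasl2 (0.86) and Zc3h7b (0.86). Ddx60, Trim34a and Oasl2 are known as interferon-stimulated genes. Outside the high cells most UMIs of the class II sum were of H2-Ab1 (1214 of 1517 in wild type, 835 of 919 in the knock-in). The groups share 2 libraries and differ in depth, so these values only describe the groups.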

How the data were processed

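Raw UMI counts per gene and barcode were deposited by the authors; Cell Ranger 3.1.0 made them, per the file headers. The build was mm10, per the submitters' processing notes. A v2 reagent kit was used, per the labels' protocols. How the authors chose barcodes is not given in the sources used here, and the smallest barcode held 500 UMIs. The 7 genes, the lists and the tests were chosen with earlier results of these data known.

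Barcodes with at least 500 genes, 1000 UMIs and no more than 10% of UMIs from mitochondrial genes were kept; 23.0% of wild-type and 11.4% of knock-in barcodes were over that limit. Scrublet called 2.59% of wild-type cells doublets (146 removed). It called 0.0692% of knock-in cells, too few to have worked, so the top 5% of scores were removed (281). Both libraries were clustered together in scanpy 1.11.5 (2000 variable genes without the listed genes, 30 components, 15 neighbours, Leiden resolution 1). Classes were named from marker lists of 13 cell types; clusters 6 and 10 stayed unnamed.

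Levels are CPM, a gene's UMIs scaled to 1000000, of a class and library with exact Poisson intervals, shares have Clopper-Pearson intervals, while CPM ratios carry exact conditional binomial ones, all 95% and for counting error only. A count of 0 was given the upper end of its Poisson interval as its limit, and in a ratio it counted as 3 UMIs. Background RNA was not removed. The interval code was tested on simulated data. Named were every member, up to 4 genes of each list with the most UMIs and those 2-fold apart, and the 10 genes most like class II across groups. H2-Ea-ps, H2-Ea and Ifi30 were not analysed here. Gene positions are from GENCODE M21. Alternatives covered the filters, doublets, clustering, scaling, the high-cell rule and the thinning depth.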

Additional observations from a re-analysis of the deposited data

How the results depend on the processing

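Of 535 values recomputed under alternative settings, 507 stayed within the counting interval of the reported value with the same direction. The share of class II high cells in the knock-in moved from 0.636% to 0.148% with the stricter cell filter and to 0.948% with the looser one. The wild-type share ranged from 0.182% to 0.237% over its alternatives. With the stricter filter the knock-in share lay below that range, so which library had the larger share depended on the filter. The log2 ratio of the class II sum over all cells moved from -0.16 to -0.0251 with high cells kept in and to -0.0372 with cells of 4 or more class II UMIs left out, and that in stem and multipotent cells to -0.92 under the latter. For Cd74 over all cells the ratio of -1.20 reversed to 0.13 with high cells kept in. Leaving out cells of 4 or more class II UMIs, the 3 richest wild-type stem-like cells or cells with a macrophage marker, and counting cluster 10 as erythroid, were chosen after seeing the data. No paired analysis was possible because each genotype had 1 library. Cd74 in the knock-in stem-like cells rested on 8 UMIs, and H2-Aa, H2-Eb1 and Ciita outside the high cells rested on fewer than 50 UMIs in most classes and were given no call there.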

Other observations

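Outside the 7 genes, the 10 genes with the largest ratio of level in high cells over the other cells, among 289 with at least 50 UMIs there, divided by library. Iglc1, Ly6d, Cd79a, Ms4a1, Igkc, Ebf1 and Iglc2, all of the B lineage, gave most of their high-cell UMIs in the knock-in, for example Iglc1 with 5 wild-type and 49 knock-in UMIs and Ly6d with 3 and 95. Plbd1 (57 and 1 UMIs), Naaa (60 and 1) and Id2, a factor of dendritic cell development (57 and 1), gave theirs in wild type. Iglc1 and Iglc2 are close copies, so their split is uncertain. The ranking describes the high cells as chosen by class II and has no test.

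The unnamed clusters held class II at progenitor levels. In the dividing cluster 6, Cd74 stood at 4.58 CPM in 196 wild-type cells (10 UMIs) and at 0.835 CPM in 134 knock-in cells (1 UMI), while H2-DMa stood at 161 and 177 CPM. Cluster 10, with 1352 knock-in cells, gave 1 Cd74 UMI and 95 H2-Ab1 UMIs (21.4 CPM). These cells gave 0 H2-Aa UMIs, which allows up to 0.832 CPM.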
